A study of Mus musculus with 6 samples.

Results

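The genes described here are 33 genes of the activated state that microglia adopt in disease, often called disease-associated microglia. They were chosen by name, with earlier results of these data known, and each was represented by its probe with the highest mean signal. The 33 genes are among 23462 genes named on the array and have 54 of its 56605 probes. Of these genes, 29 could be tested, against 13045 genes tested in all. Msr1, Olr1 and Mmp12 were too dim for the test, and Lyz2 kept a value on only 1 array of each group after removal of spots flagged as outliers.

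To determine how overexpression of PGC-1α alters resting microglia, the study compared microglia of PGC-1αf/f mice and mPGC-1α mice by microarray (3 arrays per group). PGC-1α is a coactivator of transcription known for its role in making mitochondria. All mice had a C57BL/6 background and are labelled male, with an age of 10 weeks, and no injury is given in the labels. PGC-1αf/f mice, the littermate controls, carry a loxP-dependent Pgc-1α allele with an eGFP reporter. In mPGC-1α mice the same allele is combined with a tamoxifen-inducible Cre at the Cx3cr1 locus, which is used by microglia and by other myeloid cells. The methods describe tamoxifen induction without stating separately whether the controls on the arrays received it. Cells were enriched magnetically through the surface receptor P2RY12, so cells with little P2RY12 may be missed. The labels do not say whether an array holds RNA of 1 mouse or of several, and p-values therefore measure the spread between these arrays.

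Microglia that meet amyloid plaques, dying neurons or myelin debris lower their resting genes and raise a set for lipid uptake, lysosomes, adhesion and secreted signals. Much of this switch depends on the lipid receptor TREM2 and its adaptor TYROBP. Part of the set, such as Spp1, Gpnmb, Lpl and Igf1, is also raised in microglia of the developing white matter. Other members, such as Cd44, Vim, Anxa2, Fn1 and Saa3, are expressed by many activated macrophages and leukocytes.

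Before the comparison, 2 arrays have to be described. Over all tested probes, the profile of PGC-1αf/f replicate 3 correlated with those of the other arrays at 0.928 on average, against averages between 0.962 and 0.972 elsewhere. It also carried only 101 spots flagged as outliers, against 842 to 1382 elsewhere. On mPGC-1α replicate 3, Xist was well above background while 4 Y-linked genes did not reach that level, which goes against the label male. Xist was also well above background on PGC-1αf/f replicate 2 and mPGC-1α replicate 2, where the 4 Y-linked genes were well above background too. Values without PGC-1αf/f replicate 3, or without both arrays numbered 3, are therefore given beside the results that moved with them. All arrays lay on 1 slide with each group in a row of its own, so slide row and group cannot be told apart. The brighter probe of Ppargc1a, which encodes PGC-1α, was higher in mPGC-1α microglia by 0.80 on the log2 scale (SE 0.35) and did not pass the threshold (limma adjusted p 0.306). Its values were 0.19, -0.44 and -1.21 on control arrays and 0.57, 0.28 and 0.08 on mPGC-1α arrays, so the groups overlapped, and the difference was 0.44 without PGC-1αf/f replicate 3. All 12 microglial marker genes examined were well above background on all 6 arrays, P2ry12, Tmem119 and Cx3cr1 among them.

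The sequences just upstream of the 3 members with the largest log2 differences, Saa3, Gpnmb and Spp1, are shown as the regulatory stretches nearest to the genes that differed most. They are the 250 bases before a transcription start in RefSeq (assembly GRCm38.p6), written 5′ to 3′ in the direction of transcription. Spp1 lies at chr5:104434861-104435110 on the plus strand, Gpnmb at chr6:49036268-49036517 on the plus strand and Saa3 at chr7:46715677-46715926 on the minus strand. Capitals mark matches, on either strand, to TTNNGNAA, a pattern bound by C/EBP factors, and to GAGGAAG, a pattern bound by PU.1, the lineage factor of macrophages. The marked stretches of the 2 patterns do not overlap in these sequences.
Spp1: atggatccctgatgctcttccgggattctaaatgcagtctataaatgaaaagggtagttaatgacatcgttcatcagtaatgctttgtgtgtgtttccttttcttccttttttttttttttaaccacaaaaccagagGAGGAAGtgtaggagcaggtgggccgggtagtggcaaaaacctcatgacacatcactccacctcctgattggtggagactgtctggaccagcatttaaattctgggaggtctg
Gpnmb: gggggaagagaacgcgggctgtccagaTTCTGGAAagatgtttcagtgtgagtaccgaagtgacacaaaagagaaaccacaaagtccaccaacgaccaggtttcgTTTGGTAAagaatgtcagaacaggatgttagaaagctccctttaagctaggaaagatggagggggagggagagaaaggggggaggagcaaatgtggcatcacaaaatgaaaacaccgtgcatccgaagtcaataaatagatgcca
Saa3: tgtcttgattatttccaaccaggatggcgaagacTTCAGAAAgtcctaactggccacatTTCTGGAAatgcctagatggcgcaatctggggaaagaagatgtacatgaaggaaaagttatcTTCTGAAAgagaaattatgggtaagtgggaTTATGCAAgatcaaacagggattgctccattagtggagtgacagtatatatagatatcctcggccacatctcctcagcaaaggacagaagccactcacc
In these windows Saa3 held 4 matches to TTNNGNAA and Gpnmb 2, and Spp1 held 1 match to GAGGAAG, which begins 113 bases before the start. TTNNGNAA was present in 36.8% of all 32851 promoters of this length and in the promoters of 10 of 26 members listed there (38.5%). GAGGAAG was present in 10.6% of promoters and for 5 of the 26 members (19.2%). An AP-1 pattern, TGANTCA, was found in 6.75% of promoters and for 6 members (23.1%), and the E-box CACGTG, read by MITF and TFE factors, in 6.02% of promoters and for 0 members. Shares of all promoters count promoters, while shares of members count genes, so they are not like measures. Such matches describe letters in a window and not binding.

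Across the 29 tested members, the signal was mostly higher in mPGC-1α microglia, but no single member passed the threshold. The values below are log2 signal minus the 75th percentile of the array, and differences are mPGC-1α minus PGC-1αf/f. A difference was positive for 26 members and negative for Cd86, Ank and Ccl6, that is, positive for 89.7% of members and for 53% of all genes tested. The median difference was 0.64 over the members and 0.02 over all genes tested. The members' median was 0.39 without PGC-1αf/f replicate 3 and 0.27 without both arrays numbered 3. At an adjusted p of 0.05, limma called 0 members, with a smallest adjusted p of 0.0909 for Spp1. It called 20 of all 25162 probes with a p-value, or 0.0795%. At an unadjusted p under 0.05, 10 members were higher (34.5%, against 7.84% of all genes tested) and 0 were lower (against 5.76%). Of the 24 members with values on all arrays, 12 had every mPGC-1α array above every PGC-1αf/f array (50%, against 12.4% of genes), and 0 had every mPGC-1α array below (against 10.7%). When arrays were scaled to their median in place of the 75th percentile, the median of all genes moved to -0.11 and that of the members to 0.505. Under that scaling 23 members stayed positive, and 8 members were higher at an unadjusted p under 0.05 (27.6%, against 5.73% of genes). With a filter requiring all 6 arrays to be well above background, which leaves out Gpnmb, the median of 28 members was 0.63 and 10 were higher (35.7%, against 7.27% of genes). The plot of all members by array shows their values.

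**Figure D1:**
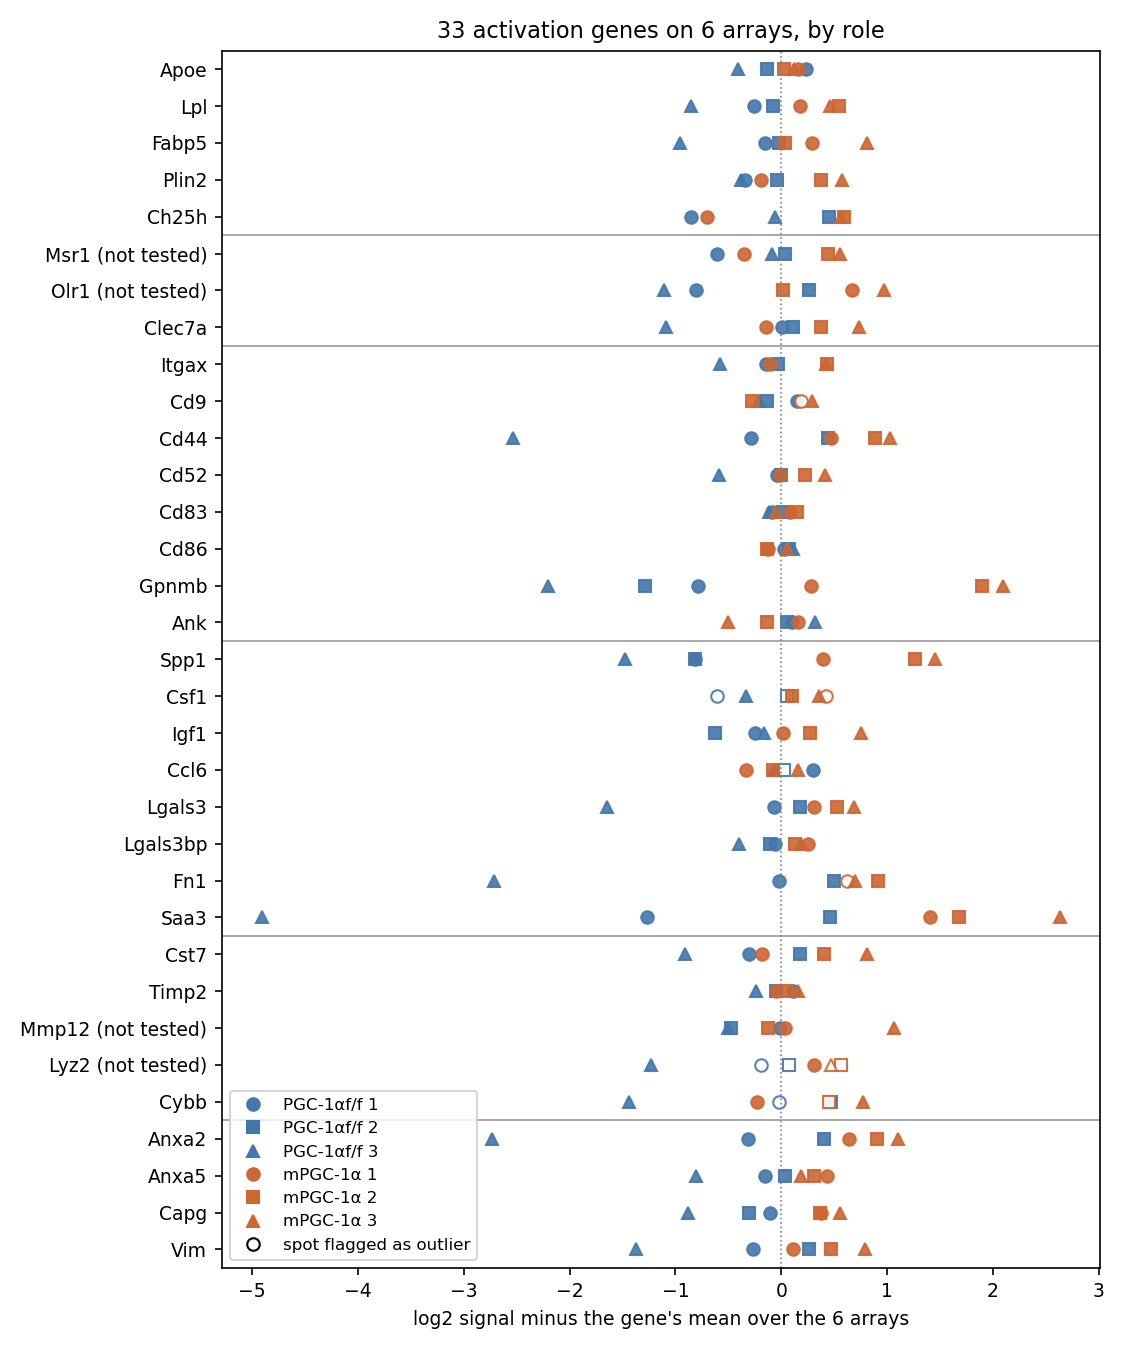
Signal of the 33 activation genes on the 6 arrays, as log2 signal minus the mean of the gene over the arrays (x axis), with genes in rows grouped by role. Blue marks are PGC-1αf/f and orange marks mPGC-1α, the shape gives the replicate, and open marks are spots flagged as outliers. PGC-1αf/f replicate 3 (blue triangles) holds the lowest value for 20 of the 24 tested members with values on all arrays.

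Secreted ligands and matrix proteins included Saa3 and Spp1, with 7 of 8 members positive, a median of 0.86 (0.56 without PGC-1αf/f replicate 3) and 4 higher at an unadjusted p under 0.05 (50%, against 7.84% of genes, which is also the share to set beside the role groups below). Spp1 encodes osteopontin, a secreted phosphoprotein that binds integrins and CD44. It was at -0.77, -0.77 and -1.43 on the control arrays and at 0.44, 1.31 and 1.5 on the mPGC-1α arrays. All mPGC-1α arrays thus lay above all controls, with group means of -0.99 ± 0.38 and 1.08 ± 0.56 (SD, n = 3 each). The difference was 2.07 (SE 0.32), or 4.21-fold, with an unadjusted p of 0.00035 and a limma adjusted p of 0.0909. Without PGC-1αf/f replicate 3 it was 1.85, and without both arrays numbered 3 it was 1.64.

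Saa3, an acute-phase serum amyloid A made by stimulated macrophages, had the largest difference of all members over the 6 arrays, though not without PGC-1αf/f replicate 3, where Gpnmb exceeded it. Its values were 1.16, 2.89 and -2.48 for the controls and 3.83, 4.11 and 5.06 for mPGC-1α mice. The groups did not overlap, but the controls alone spanned more log2 units than the distance between the group means. The difference was 3.81 (SE 1.24; 95% interval 0.87 to 6.74; limma adjusted p 0.231), and 2.31 without PGC-1αf/f replicate 3. Igf1, the growth factor that microglia supply to neurons and oligodendrocytes, was at -1.35, -1.73 and -1.26 against -1.08, -0.83 and -0.35. Its groups did not overlap, and the difference of 0.69 (SE 0.23, limma adjusted p 0.233) was 0.79 without PGC-1αf/f replicate 3, so Igf1 was not lowest on that array. Lgals3bp, a secreted glycoprotein that binds galectin-3, was at 3.61, 3.57 and 3.27 against 3.93, 3.80 and 3.86. Again the groups did not overlap, with a difference of 0.38 (SE 0.15, limma adjusted p 0.272). It was 0.27 without PGC-1αf/f replicate 3, with an unadjusted p of 0.1.

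Lgals3, which encodes galectin-3, a lectin that binds TREM2, was at 2.64, 2.89 and 1.06 against 3.02, 3.24 and 3.40. The groups did not overlap, and the difference of 1.02 (SE 0.46, limma adjusted p 0.318) was 0.45 without PGC-1αf/f replicate 3. Fn1, the matrix protein fibronectin, behaved alike, with 1.78, 2.30 and -0.91 in controls and 2.71 and 2.50 on the 2 mPGC-1α arrays with a value. Its difference of 1.54 (SE 0.92) was 0.56 without that control. Csf1, a growth factor for microglia themselves, kept a value on 1 control array, PGC-1αf/f replicate 3, and its difference of 0.57 (SE 0.26) rests on the assumption that this array varies like the others. With flagged spots kept it was 0.60, or 0.58 without that control. Other Csf1 probes, dimmer and with values on all 6 arrays, gave 0.74 (SE 0.16) and 0.66 (SE 0.23). Those probes were well above background on 2 of 3 control arrays and passed the filter only through the mPGC-1α arrays. Ccl6, a chemokine of myeloid cells, was the only negative member of this group at -0.19 (SE 0.21), with 1 control array missing, and was at -0.38 without PGC-1αf/f replicate 3.

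**Figure D2:**
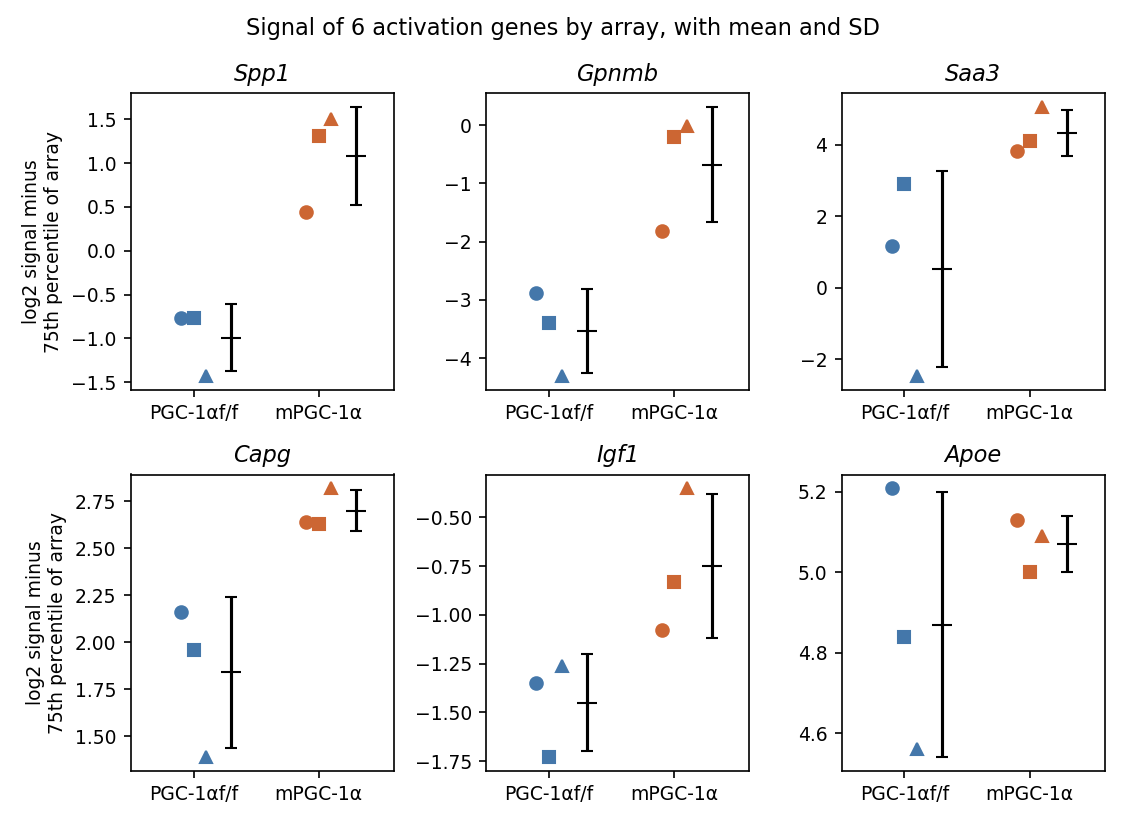
Log2 signal minus the 75th percentile of the array (y axis, its own range in each panel) of Spp1, Gpnmb, Saa3, Capg, Igf1 and Apoe in PGC-1αf/f (blue) and mPGC-1α (orange) microglia. Points are arrays, with shapes for the replicate numbers, and black bars are mean and SD (n = 3). The groups are separate for the first 5 genes and overlap for Apoe.

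Among genes of lipid handling, all 5 differences were positive, with a median of 0.51 (0.25 without both arrays numbered 3), and 2 had an unadjusted p under 0.05 (40%). Apoe, the main lipid carrier of the brain, was among the brightest members at 5.21, 4.84 and 4.56 on control arrays and 5.13, 5 and 5.09 on mPGC-1α arrays. The highest value belonged to a control, and the difference was 0.20 (SE 0.19, limma adjusted p 0.591), or 0.05 without PGC-1αf/f replicate 3. Lpl, lipoprotein lipase, was at -0.23, -0.05 and -0.83 against 0.20, 0.57 and 0.48. Its groups did not overlap, and the difference was 0.79 (SE 0.23, limma adjusted p 0.201), or 0.56 without PGC-1αf/f replicate 3.

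Fabp5, a carrier of fatty acids within the cell, was at 1.48, 1.61 and 0.68 against 1.92, 1.67 and 2.44. The nearest arrays of the 2 groups differed by little, and the difference of 0.75 (SE 0.30, limma adjusted p 0.285) was 0.46 without PGC-1αf/f replicate 3 and 0.25 without both arrays numbered 3. Plin2, a coat protein of lipid droplets, differed by 0.51 (SE 0.22) and Ch25h, which makes 25-hydroxycholesterol, by 0.30 (SE 0.45), with overlapping groups for both. Without both arrays numbered 3 they differed by 0.29 and 0.14.

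Surface proteins of adhesion and co-stimulation were more mixed. Of 8 members, 6 were positive and the median was 0.27 (0.16 without PGC-1αf/f replicate 3). Over the 7 members well above background on all arrays, 5 were positive and the median was 0.12. Of the 8 members, 1 had an unadjusted p under 0.05 (12.5%, near the 7.84% of genes). That member was Gpnmb, a transmembrane glycoprotein of phagocytes with lipid-laden lysosomes. Gpnmb was at -2.89, -3.39 and -4.31 in PGC-1αf/f microglia, where 2 of 3 arrays were well above background, and at -1.82, -0.21 and -0.01 in mPGC-1α microglia. The groups were separate, and mPGC-1α replicate 1 lay nearest to the controls. The fitted difference was 2.85 (SE 0.55), with a limma adjusted p of 0.12. Gpnmb entered the test only through the mPGC-1α arrays, where it was higher, and PGC-1αf/f replicate 3 lay below the lowest signal well above background on that array (-4.17), so the size of the difference is uncertain. It was 2.46 without PGC-1αf/f replicate 3.

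Cd44, the hyaluronan and osteopontin receptor, was at -0.82, -0.09 and -3.07 against -0.06, 0.35 and 0.49. The groups nearly touched, with PGC-1αf/f replicate 2 just under mPGC-1α replicate 1, and the difference of 1.58 (SE 0.70, limma adjusted p 0.315) was 0.71 without PGC-1αf/f replicate 3. Itgax, the integrin CD11c that often serves to identify these cells, differed by 0.51 (SE 0.22, limma adjusted p 0.305), or by 0.34 without PGC-1αf/f replicate 3, with overlapping groups. The remaining surface genes differed less.

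Cd52, a small glycoprotein of leukocytes, was at 4.38, 4.42 and 3.83 against 4.41, 4.64 and 4.83, and its difference of 0.42 (SE 0.21), or 0.23 without PGC-1αf/f replicate 3, came with overlapping groups. Cd9, a tetraspanin, was at 4.56, 4.28 and 4.20 against 4.14 and 4.70 on the 2 mPGC-1α arrays with a value. These values interleave, and the difference of 0.07 (SE 0.23) changed sign under a median shift, quantile normalization and normexp correction. Cd83 differed by 0.12 (SE 0.13) and Cd86 by -0.14 (SE 0.13), and other Cd86 probes gave 0.12 and -0.30. Cd83 was at -0.01 under a median shift, and both genes encode proteins that help to stimulate T cells. Ank, a transporter of pyrophosphate, differed by -0.32 (SE 0.20, limma adjusted p 0.432), and by -0.06 without both arrays numbered 3.

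Annexins and cytoskeletal genes were positive for all 4 members, with a median of 0.89 (0.55 without PGC-1αf/f replicate 3), and 3 had an unadjusted p under 0.05 (75%). Capg, an actin-capping protein of macrophages, was at 2.16, 1.96 and 1.39 on control arrays and at 2.64, 2.63 and 2.82 on mPGC-1α arrays. The 3 mPGC-1α arrays were close together and above all controls. The difference was 0.86 (SE 0.21), or 1.82-fold, with an unadjusted p of 0.00525 and a limma adjusted p of 0.165, and it was 0.64 without PGC-1αf/f replicate 3.

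Anxa5, which binds phosphatidylserine on dying cells, was at 1.26, 1.45 and 0.61 against 1.85, 1.73 and 1.6, a difference of 0.62 (SE 0.23, limma adjusted p 0.266) without overlap. Without PGC-1αf/f replicate 3 the Anxa5 difference was 0.37, with an unadjusted p of 0.0509. Anxa2, a membrane organizer that is abundant in activated macrophages, was at 1.43, 2.15 and -0.98 against 2.39, 2.65 and 2.85. It did not overlap either, and its difference of 1.76 (SE 0.74, limma adjusted p 0.296) was 0.84 without PGC-1αf/f replicate 3. Vim, the intermediate filament vimentin, differed by 0.92 (SE 0.41) with overlapping groups, and by 0.46 without that array.

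Proteases, their inhibitors, lysozyme and the oxidase gave positive differences for all 3 tested members, none at an unadjusted p under 0.05, and their median of 0.69 was 0.02 without PGC-1αf/f replicate 3. Cst7, an inhibitor of lysosomal cathepsins, differed by 0.69 (SE 0.34, limma adjusted p 0.351) with overlapping groups, by 0.41 without PGC-1αf/f replicate 3 and by 0.18 without both arrays numbered 3. Timp2, an inhibitor of metalloproteinases, was at 3.84, 3.68 and 3.49 against 3.68, 3.78 and 3.88. Its difference of 0.11 (SE 0.15) changed sign under a median shift, quantile normalization and normexp correction, and a second probe gave -0.10.

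Cybb, the catalytic subunit of the phagocyte NADPH oxidase, differed by 0.75 (SE 0.71) over 2 arrays of each group and by -0.20 without PGC-1αf/f replicate 3, which leaves 1 control array. A second Cybb probe, with values on all 6 arrays, differed by 1.19 (SE 0.62). Lyz2, lysozyme of phagocytes, was at 2.37 on its 1 control array, PGC-1αf/f replicate 3, and 3.91 on its 1 mPGC-1α array. With flagged spots kept, Lyz2 was at 3.41, 3.68 and 2.37 against 3.91, 4.17 and 4.07, so these groups did not overlap (difference 0.90, SE 0.33, limma adjusted p 0.255). Without PGC-1αf/f replicate 3 that difference was 0.51 (SE 0.17). Mmp12, the macrophage elastase, reached well above background on 0 arrays, at -5.43, -5.89 and -5.92 against -5.38, -5.54 and -4.35.

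Scavenger and pattern receptors were the dimmest group. Msr1, which takes up modified lipoproteins, was well above background on 2 arrays of each group, at -3.86, -3.22 and -3.34 against -3.61, -2.81 and -2.70. Olr1, a receptor for oxidized lipoprotein, was well above background on 1 control array and 2 mPGC-1α arrays, at -4.55, -3.49 and -4.86 against -3.08, -3.73 and -2.78. Both overlapped between the groups. Clec7a, which encodes dectin-1, was measured on all arrays and differed by 0.64 (SE 0.37, limma adjusted p 0.404), by 0.26 without PGC-1αf/f replicate 3 and by 0.05 without both arrays numbered 3.

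Among the 10 members with 2 or more tested probes, probes differed in sign for Cd86 and Timp2.

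**Figure D3:**
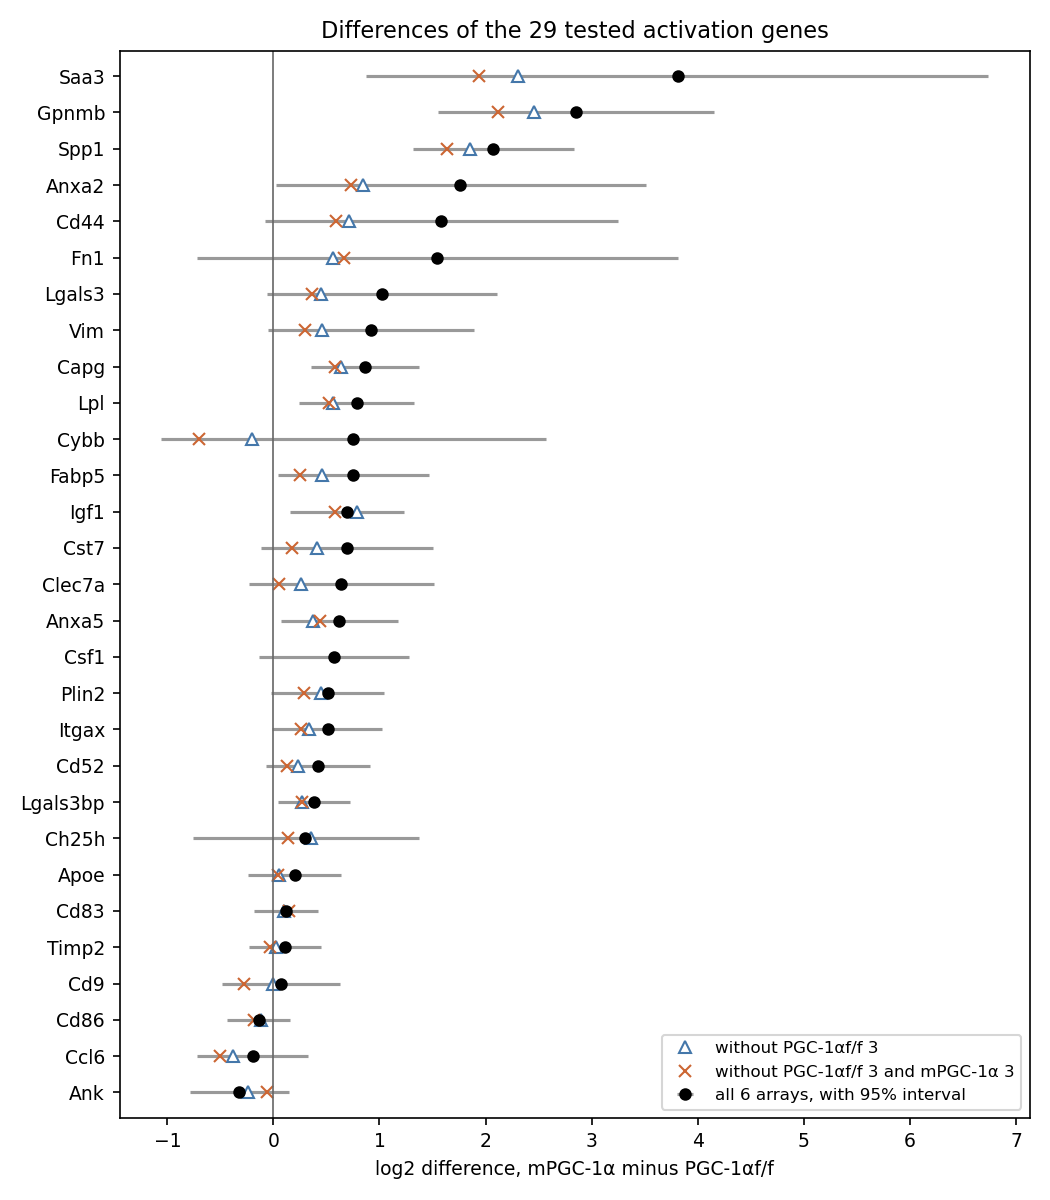
Log2 difference, mPGC-1α minus PGC-1αf/f (x axis), of the 29 tested activation genes in rows. Black points with grey lines are values and 95% intervals of all 6 arrays, open triangles leave out PGC-1αf/f replicate 3 and crosses leave out both arrays numbered 3. The triangle lies furthest to the left of the black point for Saa3 (2.31 against 3.81), and also well to the left for Anxa2, Cd44, Fn1, Lgals3, Vim and Cybb.

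Next, the dependence of the members on single arrays was measured. PGC-1αf/f replicate 3 held the lowest value for 20 of 24 members (83.3%, against 33.8% of genes with values on all arrays), and mPGC-1α replicate 3 held the highest for 15 (62.5%, against 23.4%). Without PGC-1αf/f replicate 3 the median over 28 members was 0.39, and 10 were higher at an unadjusted p under 0.05 (35.7%, against 6.09% of genes). Of these, 7 belonged to the 10 of all arrays, and Cd44, Lgals3 and Fn1 were added. Without mPGC-1α replicate 3 the median was 0.44, and 5 were higher (17.9%, against 4.91% of genes), namely Lpl, Gpnmb, Spp1, Igf1 and Capg. Without both, a setting chosen after the data were seen, the median was 0.27 and 8 of 27 were higher (29.6%, against 5.66% of genes), all of them among the 10. Whichever single array was left out, 4 of 28 members were higher at an unadjusted p under 0.05 (14.3%, against 2.56% of genes). These were Lpl, Spp1 and Capg, each well above background on all arrays, and Gpnmb.

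Slide columns 1 and 2 each held 1 array of each group, the replicates numbered 1 and 2. Within column 1, 20 of 25 members with both values were higher on the mPGC-1α array (80%, against 51.1% of genes; median 0.27). Within column 2, 23 of 26 were higher (88.5%, against 53.2%; median 0.27). Spp1 was higher by 1.21 and 2.08 in these columns, Gpnmb by 1.07 and 3.18, Saa3 by 2.67 and 1.22 and Capg by 0.48 and 0.68.

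Several marker lists of other cells shared their lowest array with the members, but not all followed the members on the other arrays. PGC-1αf/f replicate 3 had the lowest median over the members, 0.81 log2 units under their mean (-0.81), and the lowest neutrophil, monocyte and erythroid signal. Sums for border macrophages, dendritic cells, lymphocytes, astrocytes and endothelial and mural cells were also lowest there. Oligodendrocyte sums were highest there. Neutrophil markers, 11 genes such as S100a8 and Ngp, summed to 30.7 times the 75th percentile on that array, to 129 and 149 on the other controls and to 151 to 178 on mPGC-1α arrays. Monocyte markers, 8 genes such as Ly6c2 and Ccr2, summed to 6.26 there, 28.4 and 38.3 on the other controls and 38.9 to 46.4 on mPGC-1α arrays. Erythroid markers, 5 genes such as Alas2, summed to 9.07 there, 33.6 and 33.9 on the other controls and 20.8 to 34.7 on mPGC-1α arrays. Of the neutrophil list 10 of 11 genes were positive and of the monocyte list 8 of 8, against 53% of all genes tested. In these lists 0 genes had an unadjusted p under 0.05, against 7.84% of all genes higher. Without PGC-1αf/f replicate 3, Mmp8 (0.71, limma unadjusted p 0.00867) and F10 (1.2, limma unadjusted p 0.0267) were higher under that limit. The medians of the neutrophil and monocyte lists were 1.55 and 1.43, or 0.35 and 0.44 without that array. Mmp9, Cxcr2, Fcnb and F10 passed the filter only through the mPGC-1α arrays, where they were higher, and without them the medians were 1.47 and 1.25. Of the neutrophil and monocyte markers, 9 of 11 and 6 of 8 were well above background on all arrays. On PGC-1αf/f replicate 3, Mmp9 (-5.2), Cxcr2 (-6.07), Fcnb (-6.42) and F10 (-5.03) lay below the lowest signal well above background there (-4.17). The part of the neutrophil and monocyte markers in the result was not tested. In these bulk samples, fewer cells of a type and less RNA per cell cannot be told apart.

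Border macrophage markers, 10 genes such as Mrc1 and Lyve1, were positive for 9 genes with a median of 0.26 (-0.06 without both arrays numbered 3), and their sums overlapped at 33.6 to 38 in controls and 34 to 45 in mPGC-1α microglia. Lymphocyte markers had a median of 0.93 over 5 tested genes (0.35 without PGC-1αf/f replicate 3) and overlapping sums of 6.01 to 8.63 and 6.30 to 10.5. Oligodendrocyte markers, 8 genes such as Mag and Mog, went the other way, with 8 negative, a median of -0.66 and 5 lower at an unadjusted p under 0.05 (62.5%, against 5.76% of all genes). Of these 5, Mog and 1 other gene passed the filter only through the control arrays, where they were higher. Without them the median was -0.58. Sums of the oligodendrocyte markers were 15.5 to 18.9 in controls and 9.78 to 12.6 in mPGC-1α microglia, without overlap. The 12 microglial markers had 0 positive differences and a median of -0.24 (-0.14 without PGC-1αf/f replicate 3), with sums of 194 to 229 and 171 to 196 and 1 lower at an unadjusted p under 0.05 (8.33%, against 5.76% of genes). That gene was Cx3cr1, the locus that carries Cre, which differed by -0.51 (SE 0.14, limma adjusted p 0.194). Medians of the other lists were 0.15 for dendritic cells, 0.03 for astrocytes, 0.27 for neurons, 0.19 for endothelial and mural cells and 0.20 for erythroid cells. Without PGC-1αf/f replicate 3 these medians were 0, -0.04, -0.01, 0.04 and -0.42 in the same order. Over genes well above background on all arrays, the medians were 0.01 for dendritic cells and 0.12 for erythroid cells. The erythroid list then lacks Slc4a1, which passed the filter only through the mPGC-1α arrays (1.4). Of 4 tested dendritic cell genes, 1 was higher at an unadjusted p under 0.05 (25%, against 7.84% of genes), namely Ccr7, which passed the filter only through the mPGC-1α arrays (1.41, or 0.80 without that control). Whether these lists bear on the members was not tested.

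**Figure D4:**
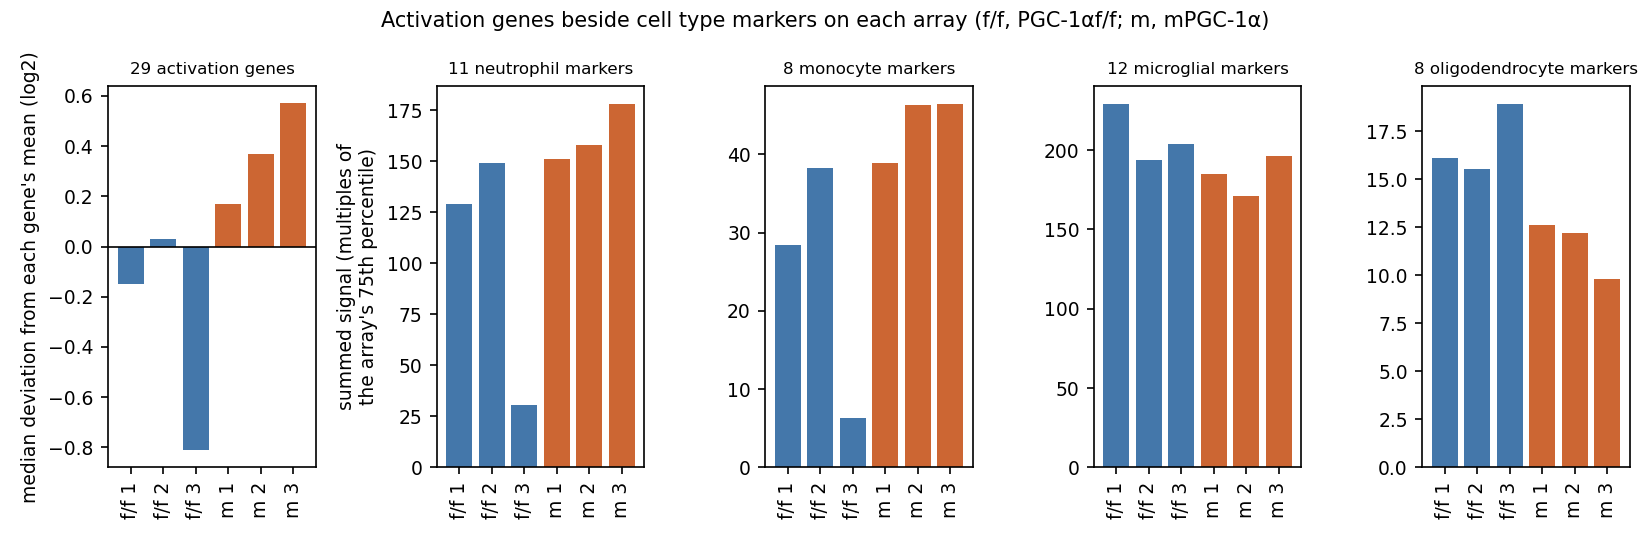
The 29 tested activation genes beside cell type markers on each array (x axes; blue, PGC-1αf/f; orange, mPGC-1α). The left panel gives the median deviation of the members from each gene's mean in log2 units, and the other panels the summed signal in multiples of the 75th percentile of the array. Members, neutrophil markers and monocyte markers are all lowest on PGC-1αf/f replicate 3, at -0.81, 30.7 and 6.26.

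Other genes of the pathway were then examined by list. TREM2, its adaptor and downstream signalling genes, which start the programme, had 1 of 8 positive differences, a median of -0.13 and 0 at an unadjusted p under 0.05. The smallest p values in that list belonged to the kinase Lyn (-0.27), the phospholipase Plcg2 (-0.16) and the exchange factor Vav1 (-0.15). Lyn was at -0.36 without PGC-1αf/f replicate 3, with an unadjusted p of 0.0466. Among 18 further genes of the state, including cathepsins, 13 were positive and the median was 0.11. Of these 18, 3 were higher at an unadjusted p under 0.05 (16.7%, against 7.84% of all genes). These were the phagocytic receptor kinase Axl (0.73, SE 0.20), Glipr1 (0.58, SE 0.16) and the inhibitory receptor Lilrb4a (1.37, SE 0.44, with 1 mPGC-1α array missing), with limma adjusted p of 0.191, 0.197 and 0.238. They differed by 0.60, 0.48 and 0.97 without PGC-1αf/f replicate 3.

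Transcription factors tied to the state were tested for 10 genes, of which 7 were positive. Of these 10, 3 were higher at an unadjusted p under 0.05 (30%, against 7.84% of all genes). Bhlhe40, a repressor that acts in lipid and lysosomal gene control of microglia, was at -1.62, -1.53 and -2.54 on control arrays and -0.78, -0.86 and -0.67 on mPGC-1α arrays. These groups did not overlap, and the difference was 1.13 (SE 0.27, limma adjusted p 0.161), or 0.81 without PGC-1αf/f replicate 3. Nr1h3, the oxysterol receptor LXRα, differed by 0.86 (SE 0.32) and Tfec, a relative of MITF, by 0.75 (SE 0.26), with limma adjusted p of 0.269 and 0.251. Without PGC-1αf/f replicate 3 they differed by 0.49 and 0.76.

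Of 10 tested receptors for the secreted members, 5 were positive and 1 was lower at an unadjusted p under 0.05 (10%, against 5.76% of all genes). This was Itgb3, an integrin subunit of the osteopontin receptor, at 1.72, 1.47 and 1.49 against 1.04, 0.88 and 0.72, a difference of -0.68 (SE 0.15, limma adjusted p 0.136). It thus opposed Spp1 and Cd44, and was followed in this list by Cd44. Genes of cholesterol export and lipid droplets had 3 of 10 positive differences and a median of -0.06. Plin3, a coat protein of young droplets, was higher by 0.49 (SE 0.16, limma adjusted p 0.238), or by 0.36 with an unadjusted p of 0.0535 without PGC-1αf/f replicate 3, while the triglyceride synthase Dgat1 was at 0.23 and Soat1, which esterifies cholesterol, at -0.20. Of these 5 lists, 0 genes passed an adjusted p of 0.05 by limma, and at an unadjusted p under 0.05 they held 7 higher genes and 1 lower among 56 tested (12.5% and 1.79%, against 7.84% and 5.76% of all genes).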

How the data were processed

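RNA of P2RY12-selected microglia was amplified, labelled with Cy5 and hybridized by the authors to Agilent arrays in a single colour (n = 3 per group). Per the file headers, the deposited scanner values are spot intensity after background subtraction and detrending by Feature Extraction, and the deposited series table holds the same intensity without normalization between arrays. The methods name GeneSpring and give no test per gene. Here, log2 intensity was reduced by the 75th percentile of each array, control spots and flagged outlier spots were left out, and spots of a probe were averaged. Probes well above background (at least 0.5 of their spots) on all arrays of a group were fitted with limma 3.58.1 in R 4.3.3 (data.table version 1.17.8; lmFit, eBayes, two-sided), with Benjamini-Hochberg adjustment over 25162 probes. Differences resting on 1 array per group were given no p-value. Probes were named through RefSeq transcripts (GRCm38.p6). All members are named, with values by array where groups were separate at an unadjusted p under 0.05, where signal was among the 5 highest, or where a probe was dim. One gene that the naming rule selects from the lists is not reported here. Members and lists were chosen with earlier results of these data known. The fit was tested on simulated data. Alternatives were other scalings, normexp (offset 50), other filters, flagged spots kept, blocks, array weights, trended eBayes, the mean over probes and leaving out arrays. The number of arrays limits the precision. Figures were made in Python 3.11.15 (numpy 2.4.6, pandas 2.3.3, matplotlib 3.10.9).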

Additional observations from a re-analysis of the deposited data

How the results depend on the processing

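Against 20 probes past an adjusted p of 0.05, limma called 11 under a median shift, 12 under quantile normalization, 11 with normexp, 450 in the deposited table without normalization, 9 with no filter, 4 with a filter requiring all 6 arrays, 137 when slide column was a random block, 752 with array weights, 8 with the mean over probes of a gene and 2 without both arrays numbered 3. Leaving out 1 array gave 0 (without mPGC-1α replicate 3) to 24. With the replicate block the count was 0, and 10 of 27 members (37%, against 10.4% of genes) were higher at an unadjusted p under 0.05. Deviations of same-numbered arrays correlated at 0.139, 0.127 and 0.0187, and with the third under 0.1 the arrays were treated as unpaired. Against 0 members past the threshold there were 6 in the table without normalization (Cd44, Gpnmb, Spp1, Fn1, Saa3 and Anxa2), 3 with array weights (Gpnmb, Spp1 and Capg) and 1 when slide column was a random block (Spp1). The 10 members higher at an unadjusted p under 0.05 became 5 to 14 when 1 array was left out, and 0 lower became 0 to 1 (Ank, without mPGC-1α replicate 1). The members' median of 0.64 was 0.385 with array weights, 0.27 without both arrays and 0.39 to 0.80 when 1 array was left out. Among genes at an unadjusted p under 0.05, 57.7% were higher, against 41.3% under a median shift and 82.9% without normalization. Of 543 alternative values of single members, 16 changed sign. Cd9 was at -0.0572 under a median shift, -0.0532 under quantile normalization, -0.318 with normexp, -0.0893 with array weights, -0.28 without both arrays and -0.21 to 0.35 when 1 array was left out. Timp2 was at -0.0235, -0.0137 and -0.0306 under the first 3 of these and -0.03 without both arrays. Cd83 was at -0.0095 under a median shift and -0.0017 with normexp. Cybb was at -0.12 with array weights, and at -0.20 to 1.71 when 1 array was left out, and Ch25h at -0.0485 to 0.73. The causes were not tested. Signal over background limits Msr1, Olr1, Mmp12 and the controls of Gpnmb.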
